A study of Homo sapiens with 8 samples.

Results

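The DNA replication machinery genes examined here were 42 protein-coding genes that encode the core factors of DNA replication, out of 20046 protein-coding genes in the annotation. They were taken as a fixed list by function: 9 genes for origin recognition and licensing, 6 for the MCM ring, 6 for origin firing and the CMG helicase, 9 for primase and polymerase subunits, 6 for the sliding clamp and its loader, 3 for the single-strand binding protein RPA and 3 for strand maturation and topology. The rule for membership is gene function and uses no measured value, although the list was drawn up with earlier results of these data known. A gene was scored as having a promoter summit in a peak list when the point of highest signal of any peak lay within 1 kb of any of its annotated transcript starts.

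The peak lists came from ChIP-seq (chromatin immunoprecipitation followed by sequencing) of the transcription factors Sp1 and CTCF in U-2 OS, a human osteosarcoma line. The Sp1 experiment used cells with the genotype endogenous knock-in V5-Halo-SP1, although the sample titles call them parental, and gave 1 library with rabbit anti-SP1 antibody 1 (MA5-32497), 1 with antibody 2 (PA5-29165), 1 with normal rabbit IgG (ab46540) and 1 input. CTCF was pulled down with ab128873 in 2 replicate libraries, each with an input, from clone C32, a single clone with the genotype endogenous knock-in FLAG-Halo-CTCF, which the text describing the design calls wild type. All cells were fixed in 1% formaldehyde for 6 min, no other treatment is named, and the Sp1 and CTCF experiments were made in different lines and run on different sequencers, so that target and experiment cannot be told apart.

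Each eukaryotic origin is marked by the origin recognition complex (ORC), onto which CDC6 and CDT1 load the MCM2 to MCM7 ring, and geminin (GMNN) restrains CDT1. CDC45 and the GINS complex turn the loaded ring into the active CMG helicase, the polymerase alpha-primase complex primes the strands, and polymerases delta and epsilon extend them on the clamp PCNA, which the RFC complex loads. Many of these genes are transcribed as cells enter S phase, and E2F factors are known regulators of the group. Sp1 is a zinc finger factor that binds GC boxes, which are frequent in CpG-rich promoters, and CTCF is a zinc finger factor known for loop anchors and insulators.

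The following windows of the hg38 genome reach 50 bases to either side of an Sp1 summit and show the promoters with the highest enrichment over both Sp1 antibodies (RFC5, ORC2, PCNA), the strongest promoter seen with antibody 1 alone (POLD2) and the strongest seen with antibody 2 alone (FEN1). Each is written 5′ to 3′ on the strand of the gene, and capitals mark GC boxes (GGGCGG or its reverse complement). The RFC5 window is chr12:118016601-118016701 on the plus strand, ORC2 is chr2:200963683-200963783 on the minus strand, PCNA is chr20:5126687-5126787 on the minus strand, POLD2 is chr7:44123551-44123651 on the minus strand and FEN1 is chr11:61792780-61792880 on the plus strand.
RFC5: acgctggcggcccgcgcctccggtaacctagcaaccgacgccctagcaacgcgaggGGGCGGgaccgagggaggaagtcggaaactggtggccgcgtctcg
ORC2: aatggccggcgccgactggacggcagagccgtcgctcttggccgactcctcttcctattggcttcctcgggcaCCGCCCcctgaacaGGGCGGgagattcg
PCNA: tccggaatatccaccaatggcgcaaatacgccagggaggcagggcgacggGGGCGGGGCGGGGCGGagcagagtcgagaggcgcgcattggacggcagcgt
POLD2: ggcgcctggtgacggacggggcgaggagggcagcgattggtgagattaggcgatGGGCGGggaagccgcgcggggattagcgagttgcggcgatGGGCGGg
FEN1: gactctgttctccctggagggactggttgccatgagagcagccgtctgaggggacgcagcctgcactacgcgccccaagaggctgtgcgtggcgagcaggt
The PCNA window holds 3 GC boxes in tandem, ORC2 and POLD2 hold 2 each, RFC5 holds 1 and FEN1 holds 0.

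For comparison, the next windows are centred in the same way on summits of CTCF replicate 1 at the ORC4 and PRIM2 starts, which had the highest mean enrichment over both CTCF replicates after GINS4 (not shown), and capitals mark the 12-base match to the CTCF core with 1 mismatch allowed. ORC4 is chr2:147937867-147937967 on the minus strand, in an intron of its canonical transcript, and PRIM2 is chr6:57316631-57316731 on the plus strand, inside the annotated gene and upstream of its canonical start.
ORC4: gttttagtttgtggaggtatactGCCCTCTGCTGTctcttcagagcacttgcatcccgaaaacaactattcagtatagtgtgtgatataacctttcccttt
PRIM2: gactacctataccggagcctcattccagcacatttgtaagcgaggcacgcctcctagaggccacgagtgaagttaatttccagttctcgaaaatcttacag
The last pair are 300-base RefSeq promoters (GRCh38.p14, 250 bases before to 50 after the start) of genes without an Sp1 summit, CDT1 at chr16:88803539-88803838 on the plus strand and ORC5 at chr7:104207964-104208263 on the minus strand, with GC boxes in capitals.
CDT1: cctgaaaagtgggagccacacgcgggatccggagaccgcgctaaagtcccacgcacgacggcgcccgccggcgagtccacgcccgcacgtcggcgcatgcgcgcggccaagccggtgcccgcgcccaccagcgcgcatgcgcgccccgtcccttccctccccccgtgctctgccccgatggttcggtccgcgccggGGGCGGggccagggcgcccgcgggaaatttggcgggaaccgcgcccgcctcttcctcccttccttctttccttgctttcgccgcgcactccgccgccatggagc
ORC5: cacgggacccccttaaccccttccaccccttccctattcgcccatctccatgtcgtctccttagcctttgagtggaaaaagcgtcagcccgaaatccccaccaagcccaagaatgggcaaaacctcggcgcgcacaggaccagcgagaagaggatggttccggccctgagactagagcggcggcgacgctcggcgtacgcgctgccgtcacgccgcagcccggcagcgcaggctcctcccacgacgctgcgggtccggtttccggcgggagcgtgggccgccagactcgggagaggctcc
CDT1, which no Sp1 peak marked, thus holds 1 GC box in its promoter, and ORC5 holds 0.

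Replication promoters carried Sp1 antibody 1 summits more often than protein-coding genes at large, while their CTCF share was near the background. With antibody 1, 33 of 42 members had a promoter summit (78.6%, 95% Wilson interval 64.1 to 88.3), against 37.3% of all protein-coding genes. With antibody 2, 20 members had one (47.6%, 33.4 to 62.3), against 24.1%. CTCF replicate 1 marked 15 members (35.7%, 23.0 to 50.8) against 32.4%, and replicate 2 marked 12 (28.6%, 17.2 to 43.6) against 24.8%, so that both intervals included the background. The IgG list marked 0 of 42 members, with a Wilson interval that reached 8.38%, against 0.0249% of all genes. Its summit nearest to a member start lay 385990 bp away, at MCM10. Each Sp1 antibody and IgG has 1 library, so no test between targets was possible, and the intervals cover counting error only.

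Nearly all replication genes start in CpG-rich sequence, which moves with both Sp1 shares. Of the 42 members, 40 had a CpG-rich start (95.2%), all but PRIM2 and RPA3, against 65.4% of protein-coding genes. Among the 13113 protein-coding genes with such a start, antibody 1 marked 50.3%, antibody 2 32.5%, CTCF replicate 1 39.7% and CTCF replicate 2 30.0%. The member share for antibody 1 lay above this background too, whereas for antibody 2 the interval began at 33.4%, just above it. Members also had more annotated starts per gene, with a median of 8 against 5, and with only the canonical start counted antibody 1 marked 32 members against 34.0% of genes.

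**Figure D1:**
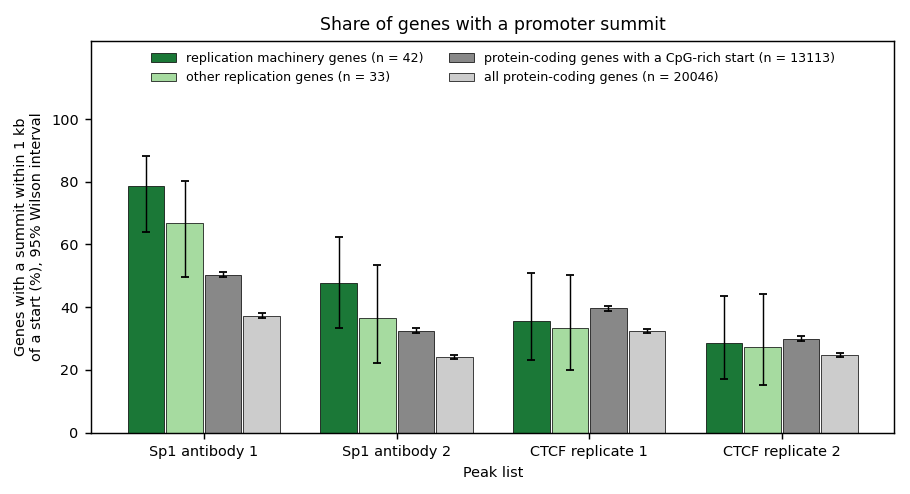
Bars give the share of genes with a promoter summit in each of the 4 peak lists, in percent, for the 42 replication machinery genes, 33 other replication genes, protein-coding genes with a CpG-rich start and all protein-coding genes, with 95% Wilson intervals. The member bar stands above both backgrounds for Sp1 antibody 1 (78.6% against 50.3% and 37.3%), and lies near them for both CTCF replicates.

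The antibodies overlapped in part. Both marked 18 members (42.9%, 29.1 to 57.8) against 21.1% of all genes, and at least 1 of them marked 35 (83.3%) against 40.3%. Among genes with a CpG-rich start the backgrounds were 28.7% and 54.1%. Antibody 1 alone marked 15 members (35.7%) against 16.2% of all genes, and antibody 2 alone marked 2 (4.76%), ORC3 and FEN1, against 2.95%. The antibody 1 list is the longer, with 8706 peaks against 5973, and when it was cut to the length of the other it still marked 28 members against 28.6% of genes.

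Combining the targets, 7 members had summits in all 4 lists (ORC2, ORC4, ORC6, CDC6, PCNA, RFC2 and TOP2A), against 6.68% of all genes. Their share was 16.7% (8.32 to 30.6), and this interval included the 9.07% of genes with a CpG-rich start. With the canonical start alone this held for 4 of them (ORC2, ORC4, ORC6 and RFC2), against 4.12%. At the other end, 6 members had none (ORC5, CDT1, PRIM1, POLE, POLE2 and RPA1). This is 14.3% (6.72 to 27.8) against 44.1% of all genes and 28.8% of those with a CpG-rich start. Both CTCF replicates without either Sp1 antibody marked 1 member, PRIM2, where 11.7% of all genes had this pattern. Both Sp1 antibodies without CTCF marked 9 members (21.4%, 11.7 to 35.9) against 11.9% of all genes and 16.2% with a CpG-rich start. Both CTCF replicates marked 12 members (28.6%) against 24.2% and 29.2%. The interval for Sp1 without CTCF included both of its backgrounds.

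In the origin recognition and licensing group, 6 of 9 genes had summits of both Sp1 antibodies. The share was 21.1% over all genes and 28.7% over those with a CpG-rich start. All 4 lists marked 4 of the 9, against 6.68% of all genes and 9.07% of those with a CpG-rich start. With the canonical start alone, CDC6 was no longer among these 4. No interval was computed for the 9 genes. Of the 6 with both Sp1 antibodies, 4 thus also had both CTCF replicates. Among all protein-coding genes, 1339 of the 4233 with both Sp1 antibodies did. Values below are the fold enrichment over control of the strongest promoter peak. ORC2, an ORC subunit, had 22.5-fold with antibody 1, 12.7 with antibody 2, 27.3 with CTCF replicate 1 and 9.81 with replicate 2. ORC6, another subunit, had 15.1 and 5.86 with the Sp1 antibodies and 16.3 and 9.44 with the CTCF replicates. Both genes were thus enriched in every list, and more with the first library of each target than with the other.

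ORC4 had 14.9 and 9.43 with the Sp1 antibodies at its canonical start. Its strongest CTCF peak, 92.9 in replicate 1 and 51.7 in replicate 2, lay inside the gene, 82820 and 82810 bp from that start and beside an alternative start. At the canonical start, CTCF was 19.1 and 15.6. CDC6, the loader that recruits the MCM ring, likewise had its Sp1 peaks (12.8 and 6.96) at the canonical start and its CTCF peaks (31.8 and 19.1) inside the gene, 3033 and 3040 bp downstream.

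ORC1, the ATPase subunit of ORC, had 10.3 and 7.95 with the Sp1 antibodies and 4.36 with CTCF replicate 1, but no summit in replicate 2. GMNN, the inhibitor of CDT1, had 7.29 and 5.34 with the Sp1 antibodies and no CTCF summit. ORC3 had antibody 2 alone, at 4.56, and its nearest antibody 1 summit was 51399 bp away. The licensing factor CDT1 and the ORC subunit ORC5 had no promoter summit in any list, and the nearest antibody 1 summits were 50907 and 805023 bp from their starts.

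All 6 MCM ring genes, which encode the motor of the replicative helicase, had an antibody 1 summit, and 2 of them also had antibody 2. The shares over all genes were 37.3% and 24.1%, and over genes with a CpG-rich start 50.3% and 32.5%. MCM5 was enriched 12.0-fold with antibody 1 and 9.29-fold with antibody 2, and MCM7 9.49 and 6.89. With antibody 1 alone, MCM4 had 12.3, MCM2 7.31, MCM6 6.36 and MCM3 4.00. MCM3 was the lowest antibody 1 value of any member, and MCM4 the highest of the ring. With CTCF, MCM6 had 6.21 in replicate 1 and no ring gene was in replicate 2, where 32.4% and 24.8% of all genes were marked, and 6 genes are too few to set these counts apart from the background.

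The 6 genes of origin firing and the CMG helicase also all had antibody 1. This list marked 37.3% of all genes and 50.3% of those with a CpG-rich start. CDC45, a helicase cofactor, had 11.1 with antibody 1 and 6.66 with antibody 2. GINS3 had 4.26 and 6.91, and was among the few members higher with antibody 2. GINS1 (7.55) and GINS2 (6.84) had antibody 1 alone, and for GINS1 the strongest peak was at an alternative start 16675 bp upstream beside ABHD12, with 6.18 at the canonical start. MCM10, an initiation factor, had 9.03 with antibody 1, 99.0 with CTCF replicate 1 and 41.7 with replicate 2, and GINS4 had 14.5, 166 and 41.98. These 2 genes carried the highest replicate 1 CTCF values of all members, at summits 207 and 295 bp upstream of the canonical start, and neither had antibody 2.

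Of the primase and polymerase genes, antibody 1 marked 5 of 9 and antibody 2 marked 1 of 9, against 37.3% and 24.1% of all genes. Among genes with a CpG-rich start these shares were 50.3% and 32.5%. POLD2 (16.4) and POLA2 (15.8), accessory subunits of polymerases delta and alpha, had antibody 1 alone. POLA1, the catalytic subunit of polymerase alpha, had 7.24 with antibody 1 and low CTCF peaks of 6.08 and 4.79. POLD1, the catalytic subunit of polymerase delta, had 7.70 with antibody 1 at its start, whereas its CTCF peaks (79.4 and 25.7) lay in a coding exon 30584 and 30614 bp downstream, beside another annotated start.

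POLD3 had 15.0 with antibody 1 and 5.73 with antibody 2 at an alternative start beside LIPT2, with summits 99393 and 99552 bp upstream, and only 6.91 with antibody 1 and no antibody 2 summit at the canonical start. PRIM2, the large primase subunit, had CTCF alone, at 90.5 and 50.1, 949 bp upstream of the canonical start. PRIM1, the catalytic primase subunit, and POLE and POLE2, subunits of polymerase epsilon, were in no list. POLE was the unmarked member with the nearest antibody 1 summit, 6491 bp away, and for PRIM1 and POLE2 the distances were 17818 and 26607 bp.

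All 6 clamp and loader genes had antibody 1, against 37.3% of all genes, and 4 had both Sp1 antibodies, against 21.1%. Among genes with a CpG-rich start these shares were 50.3% and 28.7%. RFC5, a clamp loader subunit, had 80.3 with antibody 1, which was the highest Sp1 value of any member and at the 99.2nd percentile of protein-coding genes with a summit, but only 6.01 with antibody 2. RFC4, another loader subunit, had the opposite order, 5.74 with antibody 1 and 15.5 with antibody 2. RFC2 was similar with both, 13.4 and 11.5, and had weak CTCF peaks of 5.56 and 5.03. RFC1 (5.48) and RFC3 (5.36) had antibody 1 alone.

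The clamp gene PCNA had 2 Sp1 promoters. At its canonical start, antibody 1 was 15.2 and antibody 2 was 7.23, with no CTCF summit. At an alternative start beside CDS2, with summits 6579 to 6883 bp upstream, antibody 1 was 19.5, antibody 2 was 9.04, and CTCF was 33.8 and 10.7. The printed PCNA window with tandem GC boxes belongs to this upstream start, and the inclusion of PCNA among the genes with all 4 lists rests on it.

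Of the RPA genes, RPA2 had 5.83 with antibody 1 and RPA1, the large subunit, had none, the nearest antibody 1 summit being 113258 bp away. RPA3 had 9.75 with antibody 1 at an alternative start 77888 bp inside the gene beside UMAD1, where antibody 2 was 5.62. Its strongest antibody 2 peak, at 6.48, lay 900 bp upstream of the canonical start. In the maturation and topology group, the DNA ligase gene LIG1 had 18.8 and 8.35 with the Sp1 antibodies and 3.97 with CTCF replicate 1. TOP2A, a topoisomerase gene, had 4.57 and 4.94 with the Sp1 antibodies, and its CTCF peaks (38.5 and 21.9) lay in an intron 18595 and 18581 bp from the canonical start. The flap endonuclease gene FEN1 had antibody 2 alone, at 4.90, in a promoter shared with TMEM258.

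**Figure D2:**
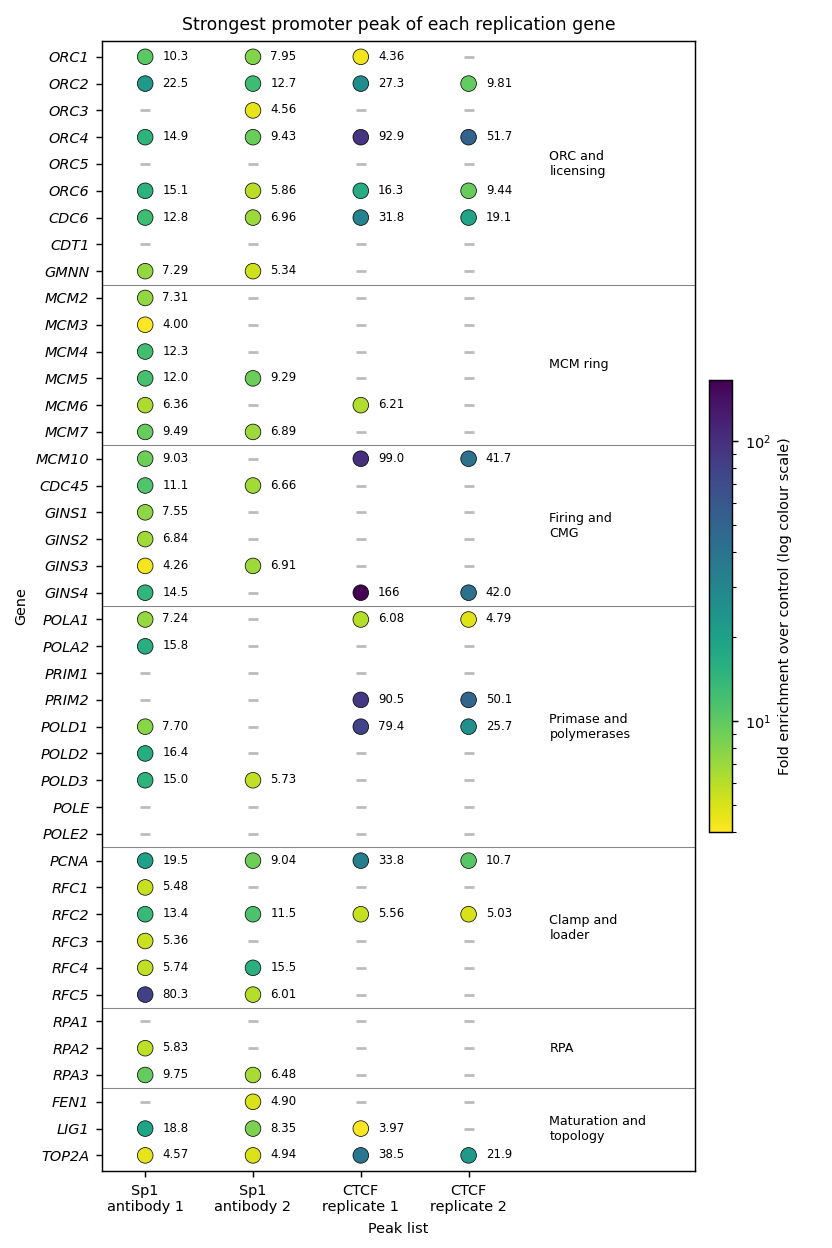
Each row is a replication gene, grouped by role, and each column is a peak list, with the fold enrichment of the strongest promoter peak printed beside a dot coloured on a log scale. Grey dashes mark genes without a promoter summit, and the MCM ring, firing, and clamp and loader blocks are filled throughout for Sp1 antibody 1.

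In peak height the marked replication genes lay near other marked genes with both Sp1 antibodies. The median fold of marked members was 9.75 for antibody 1 against 8.85 for all marked protein-coding genes, and 6.90 against 7.02 for antibody 2. For CTCF it was 31.8 against 22.6 in replicate 1 and 20.5 against 19.8 in replicate 2. At or above the 90th percentile of marked genes lay 2 members for antibody 1 (ORC2 and RFC5), 0 for antibody 2, 1 for CTCF replicate 1 (GINS4) and 0 for replicate 2. The strongest antibody 2 value, 15.5 at RFC4, fell below the 90th percentile of that list, which was 24.5-fold.

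**Figure D3:**
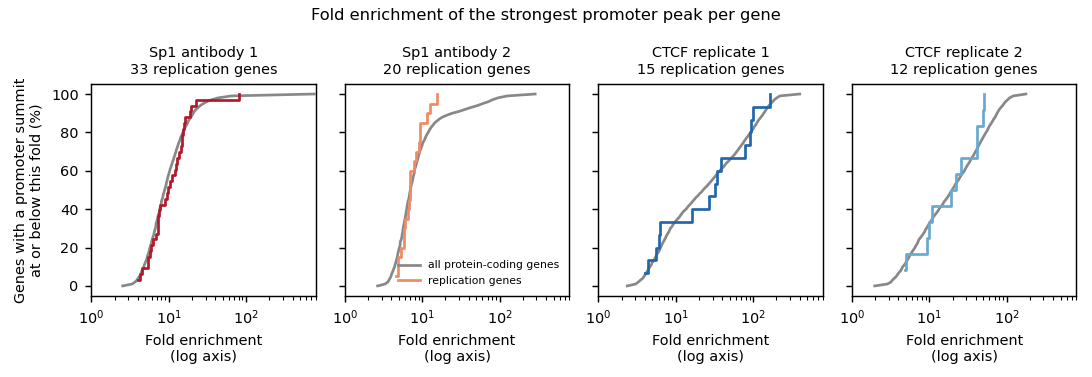
Curves give the percentage of genes with a promoter summit at or below each fold enrichment, on a log axis, for the replication genes (coloured) and all protein-coding genes (grey) in each of the 4 lists. The member and background curves run close together around the median, and in the Sp1 antibody 2 list the members end at 15.5 while the background reaches 289.

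Between the libraries of a target, the ratios of the members were near those of other genes. Over the 18 members with both Sp1 antibodies, the log2 ratio of antibody 2 to antibody 1 had a median of -0.63 and ranged from -3.74 at RFC5 to 1.44 at RFC4. It was above 0 in 3 members (GINS3, RFC4 and TOP2A), against 24.3% of all genes with both, whose median was -0.66. In all 12 members with both CTCF replicates, replicate 2 was lower, with a median log2 ratio of -0.85 (range -1.98 to -0.14) against -0.95 for all genes, of which only 2.29% were higher in replicate 2.

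Members seen with both Sp1 antibodies had the higher antibody 1 enrichment, with a median of 12.4 (n = 18) against 7.31 (n = 15) for those with antibody 1 alone. Across all protein-coding genes the same split gave 10.9 and 7.02. The 3 members with CTCF replicate 1 alone (ORC1, MCM6 and LIG1) were all at or below 6.21, whereas the median of the 12 with both replicates was 36.1. For all genes the medians were 5.43 and 42.5, and 8.2% of all genes had replicate 1 alone, against 7.14% of members.

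**Figure D4:**
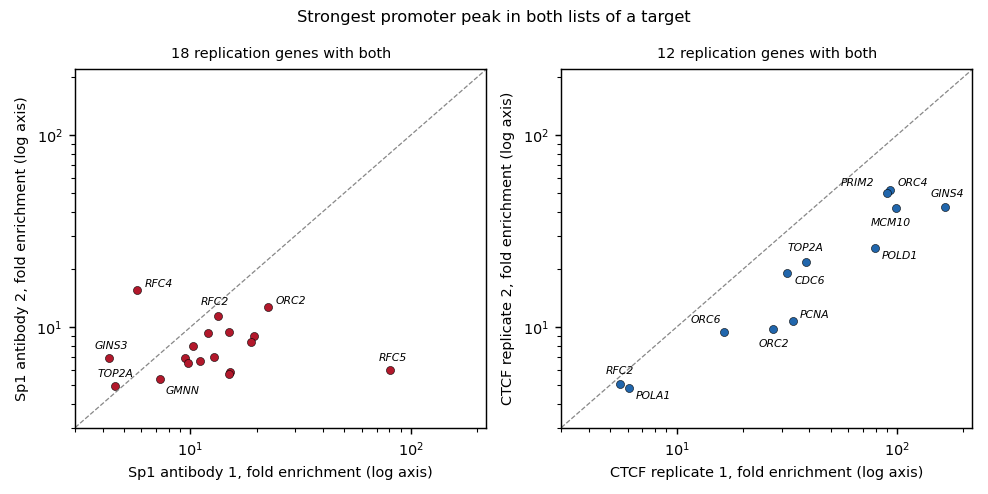
Each point is a replication gene with a promoter summit in both lists of a target, antibody 1 against antibody 2 for Sp1 (left, 18 genes) and replicate 1 against replicate 2 for CTCF (right, 12 genes), both as fold enrichment on log axes with a dashed line of equality. RFC5 and RFC4 lie farthest from the line on the Sp1 side, in opposite directions, and all 12 CTCF points fall below it.

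Sp1 summits sat close to the starts of replication genes and CTCF summits farther out. The median distance to the nearest annotated start was 53 bp for antibody 1 and 69.5 bp for antibody 2, against 252 and 249 bp for the CTCF replicates. All protein-coding genes gave 81, 84, 216 and 226 bp in the same order. With antibody 1, 23 of 33 members had the summit of their strongest peak within 100 bp of a start, where 57.4% of all marked genes did, and 29 lay upstream of the canonical start.

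No member was near the edge of the 1 kb rule for antibody 1. The marked member whose closest summit was farthest from a start was ORC6, at 299 bp, and the unmarked member with the nearest summit was POLE, at 6491 bp. For antibody 2 the corresponding values were 821 bp (POLD3) and 2129 bp (POLD2). CTCF had members on both sides of the edge, with PRIM2 at 943 bp inside in both replicates and FEN1 at 1413 bp and LIG1 at 1390 bp outside in replicates 1 and 2, and 7 unmarked members in each replicate had a summit at 1 to 5 kb.

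**Figure D5:**
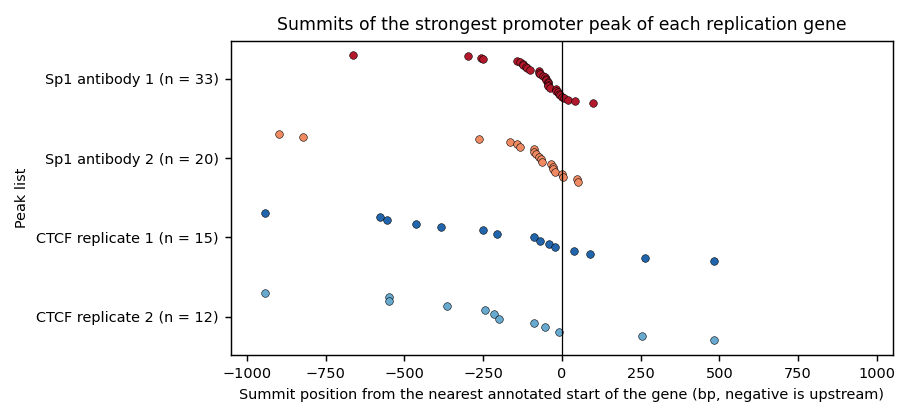
Points give the position of the summit of the strongest promoter peak of each replication gene, in bp from its nearest annotated start with negative values upstream, for each of the 4 lists. Most Sp1 summits crowd just upstream of the start (median distance 53 bp with antibody 1 and 69.5 bp with antibody 2), with single summits out to 662 and 900 bp, and CTCF summits are more spread (252 and 249 bp), out to 943 bp.

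Where both antibodies marked a member, their strongest summits were a median of 65.5 bp apart, within 100 bp in 12 of 18, and these peaks overlapped in 16. In MCM7 and RPA3 the strongest peaks of the antibodies lay at different starts, with summits 1291 and 78788 bp apart, but both genes also had a start where promoter peaks of both antibodies overlapped, as all 18 members did. CTCF replicate summits were a median of 11 bp apart over 12 members. Between antibody 1 and CTCF replicate 1 the median was 427 bp over 14 members, with a range from 82 to 82890 bp. Only 2 lay within 100 bp, MCM10 (82 bp) and MCM6 (84 bp). The strongest peaks were paired, and in ORC4, POLD1, TOP2A and CDC6 they lay at different starts, so the median is not a spacing within 1 promoter.

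Within 50 bp of the antibody 1 summit, a GC box was found in 23 of 33 members (69.7%, 52.7 to 82.6), against 56.7% of all marked genes. For antibody 2 it was 11 of 20 (55.0%, 34.2 to 74.2) against 44.4%, and all 11 of these were members with both antibodies. Both intervals included the background. The exact CTCF core was found in 0 of 15 member summits in replicate 1 and 0 of 12 in replicate 2, against 8.70% and 10.8% of all marked genes. With 1 mismatch allowed it was found in 6 (ORC1, ORC4, CDC6, MCM10, POLD1 and TOP2A) and 5 (the same genes without ORC1), against 34.0% and 39.5%. PRIM2 and GINS4, with CTCF above 40-fold in both replicates, had no such match in these windows.

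RefSeq promoters of the same 300-base span were matched for 36 of the 42 members. The widest gap to other genes was for E2F words (TTTCGCGC, TTTGGCGC or TTTCCCGC, either strand), found in 17 of 36 member promoters (47.2%) against 3.83% of protein-coding and 2.79% of all 27305 promoters. A GC box was in 26 (72.2%) against 59.2% of protein-coding promoters, CCAAT in 21 (58.3%) against 36.6% and the ETS core CCGGAA in 14 (38.9%) against 23.1%. For these words neither an interval nor a background of CpG-rich promoters was computed. Members with and without an antibody 1 summit held E2F words in near equal shares, 13 of 27 and 4 of 9, and a GC box in 21 of 27 and 5 of 9. Among the unmarked genes, CDT1, POLE and POLE2 held both a GC box and an E2F word.

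The 8-base word TCGCGAGA occurred in the promoters of 2 of the 36 members, RFC5 and POLE (5.56%), against 1.8% of protein-coding and 1.19% of all promoters. In RFC5 its copies lay 50 and 52 bp from the summit of the 80.3-fold antibody 1 peak, just at the end of the printed window, whereas POLE, with the word 37 bp before its canonical start, had no Sp1 summit. A match describes these letters alone and does not show that a factor was bound.

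Shared promoters were common in the group. In 21 of 42 members (50.0%) another gene started on the opposite strand within 1 kb upstream, among them ORC1 with PRPF38A, MCM4 with PRKDC, MCM7 with AP4M1 and CDC45 with UFD1. The share was 30.4% over protein-coding genes and 39.1% over those with a CpG-rich start. Antibody 1 marked 16 of these 21 (76.2%) and 17 of the 21 others (81.0%), where the background was 59.4% and 27.6%. Among genes with a CpG-rich start the antibody 1 backgrounds were 62.7% and 42.4%, so the divergent members lay nearer theirs than the others did. No interval was computed for either set of 21. Antibody 2 marked 14 of 21 divergent members (66.7%) and 6 of 21 others (28.6%), against 41.2% and 16.6%. Among genes with a CpG-rich start the antibody 2 backgrounds were 43.7% and 25.3%, so the 28.6% lay near the latter. A peak between divergent starts cannot be given to one gene or the other, and for 13 of 33 members the strongest antibody 1 peak also lay within 1 kb of a start of another protein-coding gene, against 34.5% of all marked genes.

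Beyond 1 kb of any start, no Sp1 summit of either antibody lay inside any of the 42 genes, which span 2.398 Mb together. A count of 0 allows up to 0.125 per 100 kb, and the density over all protein-coding genes was 0.083 for antibody 1 and 0.065 for antibody 2, so that a difference was not detectable. CTCF had 33 such summits in 17 members in replicate 1 and 25 in 15 members in replicate 2, which is 1.38 and 1.04 per 100 kb against 1.26 and 1.05. GINS3 had the most, with 5 in each replicate, although its promoter had no CTCF summit.

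A further 33 genes with roles in replication, such as origin kinase, fork protection, chromatin assembly and RNase H2 factors, were scored in the same way. Antibody 1 marked 22 (66.7%, 49.6 to 80.2) against 37.3% of all protein-coding genes, and antibody 2 marked 12 (36.4%, 22.2 to 53.4) against 24.1%. The CTCF replicates marked 11 (33.3%) and 9 (27.3%), against 32.4% and 24.8%, and IgG marked 0. The antibody 1 interval lay above 37.3% but included the 50.3% of genes with a CpG-rich start. The antibody 2 interval included the background of all genes, and both CTCF shares lay near theirs. ASF1A and MCM9 had equal CTCF values (56.7 and 21.7), so the same peaks may be counted for both. TIPIN, a fork protection gene, was enriched 56.1-fold with antibody 1, 9.13 with antibody 2 and 41.98 and 37.7 with CTCF. MTBP, an initiation gene, had 7.95 with antibody 1 and 141 with antibody 2, the widest gap between antibodies in either gene list, in the opposite direction to RFC5.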

How the data were processed

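Sp1 and CTCF were profiled by ChIP-seq in knock-in lines of U-2 OS, and 5 of 8 libraries (Sp1 antibody 1, Sp1 antibody 2, IgG, CTCF replicates 1 and 2) have a peak list. The 3 inputs have none analysed here. The processing notes name cutadapt 2.6, Bowtie2 2.4.5, SAMtools 1.15.1, deepTools 3.5.4, MACS2 2.2.7.1 and bedtools 2.27.1, with hg38. Peaks were called by the authors for each library. The deposited MACS2 columns used are the fold enrichment ratio over control, −log10 p and −log10 q, and the summit offset. The deposited score column was not used. The lowest −log10 q per list was 1.30 to 1.43, which is near q = 0.05. Which library served as control for each list is not given in the sources used here. The lists hold no read depth, read numbers tabulated by the study were not used here, and a missing peak can reflect depth.

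Summits (peak start plus offset) were compared with all transcript starts of GENCODE release 44 in Python 3.11.15 (pandas 2.3.3, pysam 0.24.0). The strongest promoter peak was that with the highest fold within 1 kb. A start was CpG-rich with a GC fraction of at least 0.5 and an observed over expected CpG ratio of at least 0.6. Each member was set beside all 20046 protein-coding genes, with 95% Wilson intervals that cover counting error only and no test, because the members are not replicates. The overlap step was tested on simulated summits. All 42 members were named by role, and sequences were chosen by highest mean log2 fold, by presence with 1 antibody, or by absence of Sp1, without chromosome 8. The members, the lists and the words searched were chosen with earlier results of these data known. The single 8-base word TCGCGAGA, the genes named from the further 33 and the background without divergent starts were picked after values were seen.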

Additional observations from a re-analysis of the deposited data

How the results depend on the processing

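No paired analysis was possible because replicate numbers are common only to a CTCF library and its input, for which no list was analysed here, and no test was run. Of 99 alternative values, 78 stayed within the limits set (1.5 times for a count). With windows of 5 kb, CTCF replicate 2 and both CTCF replicates marked 19 members each (background 43.8% and 43.2%). Among the 33 other replication genes, CTCF replicates 1 and 2 then marked 20 and 19, against 51.5% and 43.8% of all genes. With the canonical start only, 4 members had all 4 lists. Backgrounds in CpG-rich genes were 50.3% and 32.5% for the Sp1 antibodies and 39.7% and 30.0% for the CTCF replicates, and without divergent starts, added after seeing the data, 42.4% and 25.3% for Sp1. Ranked by −log10 p, the median percentile of members was 63.4 for antibody 1 and 54.8 for antibody 2, against 56.6 and 48.3 by fold. A longer GC box (GGGGCGGGG) was at 9 antibody 1 summits (27.3%, 15.1 to 44.2) and 5 antibody 2 summits (25.0%, 11.2 to 46.9). All marked genes gave 20.1% and 13.8%, inside both intervals. With 1 mismatch the CTCF core was at 6 and 5 summits, against 34.0% and 39.5% of all marked genes. From canonical starts, median distances were 115 and 128 bp for Sp1 and 462 and 740.5 bp for CTCF. With CTCF replicate 1 or replicate 2 left out in turn, 12 and 15 members had CTCF, against 24.8% and 32.4% of all genes. All remaining lists then marked 7 and 9 members, and 6 members had none in both cases. For these last counts no share over all genes was computed. Antibody 1 marked between 28 and 33 members under every window, cutoff and list length tried, against 28.6% to 40.5% of all genes. Each Sp1 antibody has 1 library, so the spread between Sp1 libraries is not known, and the lists show no depth below their cutoff.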
